A study of Mus musculus with 6 samples.

Results

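Messenger RNAs of the translation initiation, elongation and termination factors were examined in 6 tumour biopsies of mouse lung squamous cell carcinoma. The 3 PSCN tumours carried constitutively active PI3K (Pik3ca H1047R), SOX2 overexpression, deletion of Cdkn2a/b and expression of the NSD3 T1242A mutant. The 3 PSC tumours, the control group, carried the same PI3K, SOX2 and Cdkn2a/b alterations and are labelled NSD3 WT. Total RNA was sequenced, and the deposited values are estimated counts per gene symbol, printed here in capitals as in the count table. The promoter or Cre behind the alleles, the animals' age and whether each biopsy came from a separate mouse are not given in the labels. The p-values here therefore speak only to the spread among these 6 libraries, which may be partly technical. Factors were taken by symbol: those starting EIF1 to EIF6, EEF1 or EEF2, with the release factors ETF1 and GSPT1 and the poly(A)-binding proteins PABPC1 and PABPC4. Of 78 such symbols, 13 were left out (pseudogenes, the EIF2AK kinases, EIF4EBP1 and EIF2S3Y), which left 65 of the 46937 symbols in the table. The filter on low counts kept 63 of them: the germ-cell cap-binding gene EIF4E1B had no count in any library, and EIF2C5, annotated as a noncoding RNA, had 3 counts in 1 library.

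Translation starts when eIF2 brings the initiator methionyl-tRNA to the small ribosomal subunit, together with eIF1, eIF1A, eIF5 and the multisubunit scaffold eIF3. The eIF4F complex (the cap-binding protein eIF4E, the scaffold eIF4G and the RNA helicase eIF4A) recruits the mRNA, poly(A)-binding protein bridges its other end, and eIF5B joins the large subunit. In elongation eEF1A delivers aminoacyl-tRNAs, eEF2 moves the ribosome along and eIF5A helps at difficult peptide bonds, until eRF1 and eRF3 release the chain. PI3K signalling acts on this machinery through mTORC1, which frees eIF4E from the 4E-binding proteins and favours mRNAs of factors and ribosomal proteins that start with a pyrimidine tract.

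Many of these genes are known targets of MYC, which binds the E-box CACGTG. Of the 65 symbols, 46 had promoter entries in the RefSeq table of GRCm38.p6 (250 bases before to 50 after an annotated transcription start), and 12 of the 46, or 26.1%, held CACGTG in at least 1 window. The motif is the same on both strands. It was held by 10.8% of all genes tested that have an entry, and by 23.3% of the 60 factor windows against 9.1% of the windows of genes tested. A match of letters is a description and not a bound site. For some of these 12 genes, 1 window of 46 bases is shown. The genes shown were all picked from those with positive log2 fold changes of PSCN over PSC. The windows therefore do not speak to direction. The E-box is in capitals, and windows are read in the direction of the gene.
EEF2, chr10:81176568-81176613, plus strand: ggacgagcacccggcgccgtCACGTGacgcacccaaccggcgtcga
EIF3F, chr7:108934327-108934372, plus strand: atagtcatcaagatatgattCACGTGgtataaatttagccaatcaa
EIF3K, chr7:28981907-28981952, minus strand: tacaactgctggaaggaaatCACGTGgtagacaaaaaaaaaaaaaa
EIF4A1, chr11:69672587-69672632, minus strand: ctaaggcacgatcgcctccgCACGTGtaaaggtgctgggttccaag
EIF4E, chr3:138527184-138527229, plus strand: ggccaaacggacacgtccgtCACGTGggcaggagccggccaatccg
EIF4G1, chr16:20672653-20672698, plus strand: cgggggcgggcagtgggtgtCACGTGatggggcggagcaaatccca
EIF5A, chr11:69921435-69921480, minus strand: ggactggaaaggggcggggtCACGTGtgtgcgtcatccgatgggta
The other 5 genes with a match were EEF2K, EIF1B, EIF3A, EIF4H and EIF5A2. Of these, EIF1B and EIF5A2 had negative log2 fold changes of PSCN over PSC.

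Total counts lay between 69563622 and 72807077 per library. Levels are CPM, that is, counts per 1e6 of the TMM-adjusted library total, and values of every library are given in the order of libraries 1, 2 and 3. NSD3, the gene altered in PSCN, stood at 821, 918 and 1932 CPM in PSCN, against 79.7, 96.7 and 102 CPM in PSC, with every PSCN library above PSC as labelled. Squamous markers were present in every library but uneven, with a summed level over 9 measured markers of 12461, 29109 and 9899 CPM in PSCN, against 166, 1527 and 7124 CPM in PSC. KRT5, a keratin that defines squamous basal cells, stood at only 52.1 CPM in PSC library 1. XIST, expressed from the inactive X of female cells, was high in PSC libraries 2 and 3 alone, and the Y-linked DDX3Y was high in the other 4 libraries.

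No factor passed an adjusted p of 0.05 in edgeR's quasi-likelihood test over all 21201 genes tested, where 1 gene passed (0.00472%). The smallest adjusted p among the factors was 0.149, for EIF2S2. At an unadjusted p under 0.05, 31 of the 63 factors, or 49.2%, were higher in PSCN, against 9.48% of all genes tested, and 2 factors, or 3.17%, were lower, against 12.2%. The 2 lower ones were EEF1A2 and EEF1AKMT2. Without PSCN library 1, 2 or 3, the count of higher factors was 25 (against 7.87% of genes), 14 (against 4% of genes) and 16 (against 5.4% of genes), in that order. Without PSC library 1, 2 or 3 it was 14 (against 4.71% of genes), 13 (against 3.56% of genes) and 39 (against 16% of genes). As shares of the 63 factors these counts are 39.7, 22.2 and 25.4% without PSCN libraries 1, 2 and 3 and 22.2, 20.6 and 61.9% without PSC libraries 1, 2 and 3. EEF1AKMT2 had an unadjusted p above 0.05 with any 1 library left out except PSC library 3, and EEF1A2 with any 1 left out except PSC library 2 or 3. For 42 factors the lowest PSCN library exceeded the highest PSC library, that is 66.7%, against 15.2% of all genes tested. The reverse held for 1 factor, EEF1AKMT2, against 13.4%. Positive log2 fold changes of PSCN over PSC were found for 53 factors, or 84.1%, against 49.1% of all genes. The median log2 fold change was 0.45 over the factors and -0.01 over all genes tested. Factors share libraries and are not replicates of a condition.

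**Figure D1:**
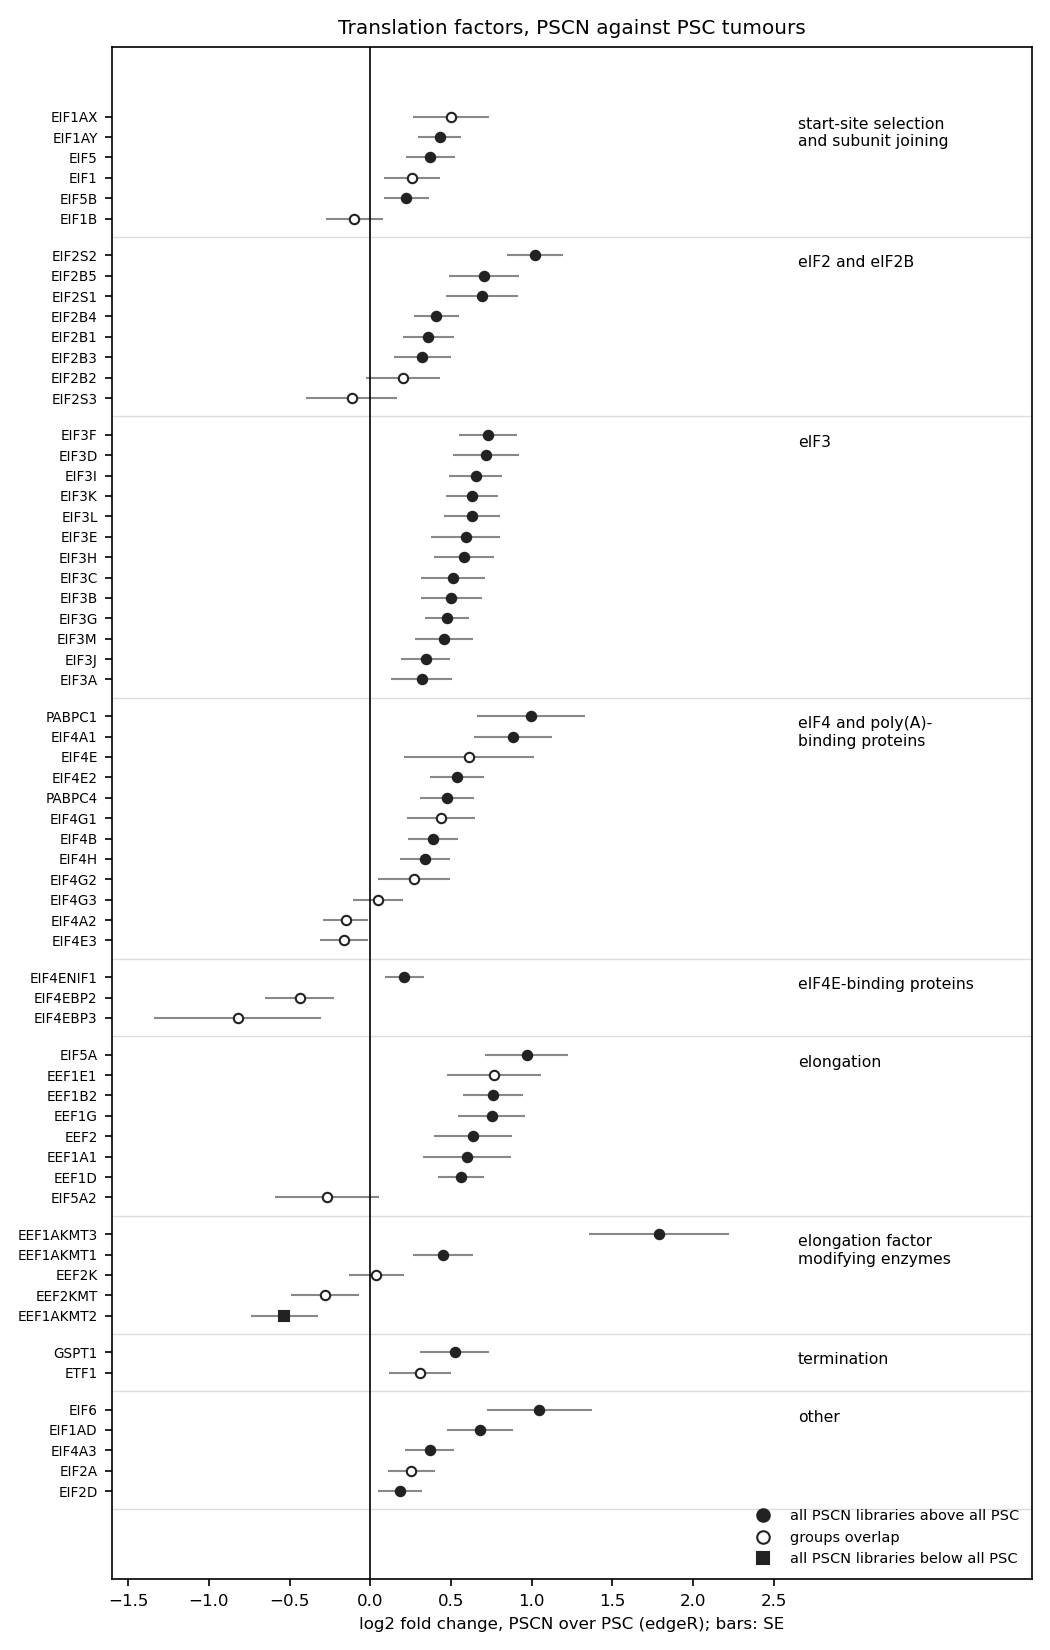
Log2 fold change of PSCN over PSC (x axis) with its standard error for 62 of the 63 factors tested, ordered by size within each functional group; EEF1A2, at -7.82 with a standard error of 2.92, lies off the axis. Filled circles mark factors whose 3 PSCN libraries all lie above the 3 PSC libraries, open circles overlap and the square the reverse, and the 13 eIF3 subunits are all filled.

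In the table deposited by the authors, made with DESeq2 from the same libraries, 15 of 62 factors, or 24.2%, had an adjusted p under 0.05 and were higher in PSCN, against 3.92% of all genes with an adjusted p, and 0 were lower, against 8.1%. The authors' deposited table gives the smallest adjusted p among factors to EIF2S2, at 0.000189, and the next to EEF1AKMT3, at 0.00244. The edgeR calls depended on PSC library 3, which for 49 of the 63 factors was the highest of the PSC libraries. For 18 factors it exceeded at least 1 PSCN library. This order was not counted over all genes tested, so it is not shown to be particular to the factors. Without PSC library 3, 12 factors, or 19%, passed the adjusted threshold in edgeR and were higher in PSCN, against 3.39% of genes. In that fit 0 factors were lower, against 5.4% of genes. The 12 were EIF2S1, EIF2S2, EIF3D, EIF3F, EIF3I, EIF3K, EIF3L, EIF4A1, PABPC1, EEF1G, EIF6 and EIF1AD. Measured against PSC library 3 by itself, which was tried once its values were known and has no test, the factors' median log2 ratio was 0.27. The median of all genes tested was 0.04. Positive ratios were found for 55 of the 63 factors, against 11517 of the 21201 genes tested. Other tests of the same 6 libraries differed in their calls. A DESeq2 fit called 21 factors higher, or 33.3%, against 5.31% of genes, and 1 lower, EEF1AKMT2, against 8.65%; it gave EEF1A2 no adjusted p. Limma-voom with quality weights called 30 higher, or 47.6%, against 8.43%, and 0 lower, against 5.84%, while limma-voom without them called 0 factors in either direction, with 36 higher, against 10.9% of genes, and 1 lower, EEF1AKMT2, against 9.71%, at an unadjusted p under 0.05.

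All factors together took 1.75, 2.04 and 1.99% of counts in PSCN, against 1.33, 1.37 and 1.65% in PSC. The groups did not overlap, and PSC library 3 was the nearest to PSCN. Summed levels were 18606, 22422 and 20154 CPM in PSCN, against 12506, 12595 and 16205 CPM in PSC. Beside them, the markers of ciliated airway cells summed to 47.2, 30.2 and 69.2 CPM in PSCN, against 921, 424 and 41 CPM in PSC, and those of club cells, the secretory cells of the airway, to 1956, 571 and 1566 CPM in PSCN, against 27349.9, 18323 and 3744 CPM in PSC. Alveolar type 2 markers summed to 2172, 2335 and 2882 CPM in PSCN, against 6947, 12500 and 1517 CPM in PSC. PSC libraries 1 and 2, lowest in factors, were the lowest in squamous and the highest in ciliated, club and alveolar type 2 markers. PSCN library 2, highest in factors, was the highest in squamous markers. Other libraries were not in the same order. PSCN library 3 was above PSCN library 1 in factors but below it in squamous markers. PSC library 3 was below every PSCN library both in factors and in alveolar type 2 markers. All 9 squamous markers measured had positive log2 fold changes, and all 9 ciliated, 6 club and 7 alveolar type 2 markers had negative ones. Fibroblast markers summed to at most 3858 CPM except in PSCN library 1, at 41181 CPM. Endothelial markers summed to 571, 449.7 and 311 CPM in PSCN, against 1189.6, 719 and 237 CPM in PSC, and immune markers to 331, 498 and 1062 CPM in PSCN, against 160.3, 218 and 586 CPM in PSC, with overlap in both. Counts on AY036118 and CT010467.1, a pair of noncoding symbols, made up 1.79, 2.52 and 1.05% of counts in PSCN, against 4.12, 4.02 and 2.71% in PSC. The part of cell mix and of these noncoding counts in the factor levels was not tested. In bulk tissue, fewer cells of a type and less RNA per cell cannot be told apart.

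**Figure D2:**
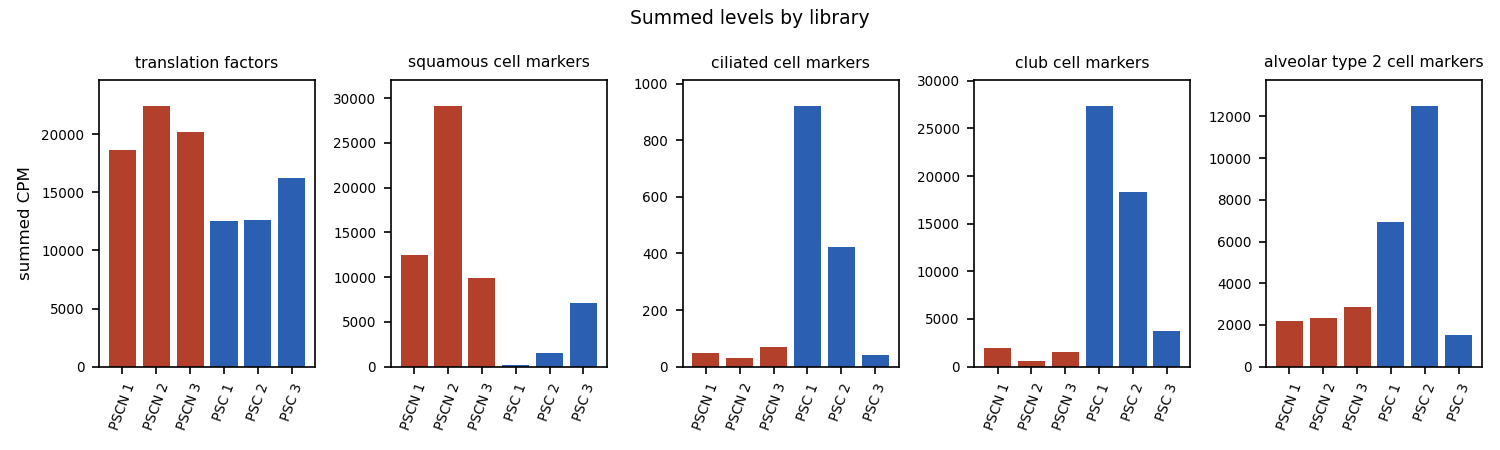
Summed CPM (y axis, each panel on its own scale from 0) of the 65 factors and of 4 marker lists in each of the 6 libraries. The factor sum runs from 18606 to 22422 CPM in PSCN and from 12506 to 16205 CPM in PSC, with PSC library 3 nearest to PSCN in the factors and in squamous, ciliated and club markers.

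Among the factors that select the start codon, differences were small. EIF1AY and EIF1AX are the eIF1A symbols of the table, and EIF1AY is listed as a synonym of mouse Eif1ax, so which of the 2 mouse eIF1A genes each stands for is uncertain. EIF1AY stood at 93.9, 109.9 and 108 CPM in PSCN, against 71.9, 75.6 and 84.2 CPM in PSC, a log2 fold change of 0.43 (SE 0.14) with an unadjusted p of 0.0187 in edgeR. Its groups did not overlap, while those of EIF1AX did, at 81.4, 134 and 108 CPM in PSCN, against 72.3, 65.2 and 91.4 CPM in PSC. EIF5, which makes eIF2 hydrolyse GTP at the start codon, stood at 329, 352 and 335 CPM in PSCN, against 260.2, 235 and 289 CPM in PSC. EIF5B, the GTPase of subunit joining, stood at 214, 237 and 229 CPM in PSCN, against 203, 176 and 204 CPM in PSC, a small difference without overlap (log2 fold change 0.22 (SE 0.14)). EIF1, the scanning factor with the highest level per length among those with an annotated length, at 88.9 CPM per kb of exon, stood at 166, 215 and 229 CPM in PSCN, against 182, 159 and 168 CPM in PSC. Its paralogue EIF1B stood at 29.5, 27 and 38.2 CPM in PSCN, against 35.7, 34.5 and 31 CPM in PSC. Both overlapped between groups. The log2 ratio of EIF1 to EIF1B counts was 2.495, 2.99 and 2.59 in PSCN, against 2.35, 2.21 and 2.44 in PSC, with no overlap, and its two-sided exact permutation p of 0.1 is the smallest that 3 against 3 libraries allow.

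The eIF2 subunits differed in sign. EIF2S2, the beta subunit that contacts eIF5 and eIF2B (chromosome 2, 154871410 to 154892935 in GRCm38), stood at 155, 165 and 185 CPM in PSCN, against 69.4, 83.7 and 96.8 CPM in PSC. Every PSCN library was at least 1.5 times above every PSC library, and the log2 fold change was 1.02 (SE 0.17), or 0.90 to 1.15 with each library left out in turn. EIF2S1, the alpha subunit whose phosphorylation stops initiation under stress, stood at 93.1, 117 and 100.4 CPM in PSCN, against 57.3, 51.2 and 83.9 CPM in PSC, also without overlap (log2 fold change 0.69 (SE 0.22)). EIF2S3, the gamma subunit that binds GTP and the tRNA, did not follow them, at 105, 135 and 114 CPM in PSCN, against 82.4, 130.1 and 171 CPM in PSC. Of the PSC libraries, the XIST-high 2 and 3 lay within and above the PSCN range, and the XIST-low library 1 lay below it. Mouse eIF2 gamma is made from an X-linked and a Y-linked gene, and the symbol EIF2S3 may stand for the X-linked gene EIF2S3X, which the naming rule leaves out. The Y-linked EIF2S3Y stood at 63.7, 76.7 and 81.2 CPM in PSCN, against 67.8, 0.0400 and 0 CPM in PSC, which follows DDX3Y. With sex, read from XIST and DDX3Y, as a covariate the log2 fold change of EIF2S3 was 0.52 (SE 0.27), of the opposite sign to its value of -0.115 (SE 0.28) without it. No PSCN library was XIST-high, so in that fit PSC library 1 alone sets the PSC level among XIST-low libraries. Without EIF2S3 and EEF1A2, 1 factor, EEF1AKMT2, was lower at an unadjusted p under 0.05 in edgeR, against 12.2% of all genes tested.

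The exchange factor eIF2B, which recharges eIF2 with GTP, was positive in all 5 subunits, with log2 fold changes between 0.20 and 0.71. Its catalytic subunit EIF2B5 had the highest level per length of the eIF2 and eIF2B genes with an annotated length, 32.1 CPM per kb of exon, and stood at 88.2, 130.2 and 91.3 CPM in PSCN, against 56, 57.8 and 76 CPM in PSC. PSCN library 2 was the highest for EIF2B5, and without it the log2 fold change was 0.46. Its partner EIF2B3 and the regulatory subunits EIF2B1 and EIF2B4 had PSCN libraries all above PSC, and the regulatory subunit EIF2B2 overlapped. EIF2B4 had 27.9, 28.4 and 31.7 CPM in PSCN, against 22.7, 20.6 and 22.9 CPM in PSC, a shift of 0.41 (SE 0.14) on the log2 scale. EIF2A and EIF2D, alternative tRNA carriers that are not eIF2 subunits despite the name, had log2 fold changes of 0.25 (SE 0.15) and 0.18 (SE 0.13).

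eIF3 showed 1 direction throughout. All 13 measured subunits had PSCN libraries above all PSC libraries, against 15.2% of all genes tested. At an unadjusted p under 0.05, 11 of the 13, or 84.6%, were higher in PSCN, against 9.48% of all genes tested. The subunits share the same 6 libraries and are not replicates. Their log2 fold changes ran from 0.32 to 0.73, with a median of 0.58 that was 0.45 to 0.76 with each library left out in turn. EIF3F (chromosome 7, 108934417 to 108942951), a subunit of the MPN pair that holds the complex together, had the smallest p, with 319, 366 and 398 CPM in PSCN, against 199.9, 201 and 253 CPM in PSC and a log2 fold change of 0.73 (SE 0.18). Its values averaged 361 ± 39.7 CPM in PSCN and 218 ± 30.5 CPM in PSC (SD, n = 3 each). EIF3I, a beta-propeller subunit of the module that contacts the mRNA entry channel, stood at 114, 136 and 128 CPM in PSCN, against 76.5, 69.5 and 93.7 CPM in PSC. EIF3H, partner of EIF3F and the highest of the complex per length at 112 CPM per kb of exon, stood at 195, 235 and 221 CPM in PSCN, against 123, 137 and 176 CPM in PSC. EIF3K, a small peripheral subunit, stood at 107, 95.9 and 97.8 CPM in PSCN, against 54.7, 62.7 and 76.5 CPM in PSC, and its neighbour EIF3L at 173, 186 and 165 CPM in PSCN, against 102, 101 and 136 CPM in PSC. PSC library 3 was the highest PSC library for each of these 5 subunits.

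EIF3A, the largest core subunit, had the smallest log2 fold change of the complex. It stood at 409, 524 and 417 CPM in PSCN, against 371, 316 and 395 CPM in PSC, a value of 0.32 (SE 0.19), and the lowest PSCN library exceeded PSC library 3 only narrowly. EIF3C, the other core scaffold, stood at 316, 393 and 325 CPM in PSCN, against 231, 205 and 290.0 CPM in PSC. EIF3B, which scaffolds the module with EIF3I and EIF3G, had a log2 fold change of 0.50 (SE 0.19), while EIF3G, its RNA-binding partner, had 0.48 (SE 0.14). EIF3D, the subunit able to bind caps on certain mRNAs, stood at 149, 174 and 171 CPM in PSCN, against 90.2, 82.4 and 128 CPM in PSC, and EIF3E, its partner, at 154, 200.0 and 176 CPM in PSCN, against 96.2, 108 and 148 CPM in PSC. EIF3M had a log2 fold change of 0.46 (SE 0.18). EIF3J, the loosely bound subunit, stood at 49, 59.3 and 46.2 CPM in PSCN, against 44.1, 38.6 and 39.1 CPM in PSC; mouse has the genes Eif3j1 and Eif3j2, and the single symbol may hold either or both. Against PSC library 3 alone, all 13 subunits kept a positive log2 ratio, with a median of 0.30. Of the 21201 genes tested, 11517 had a positive ratio there.

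**Figure D3:**
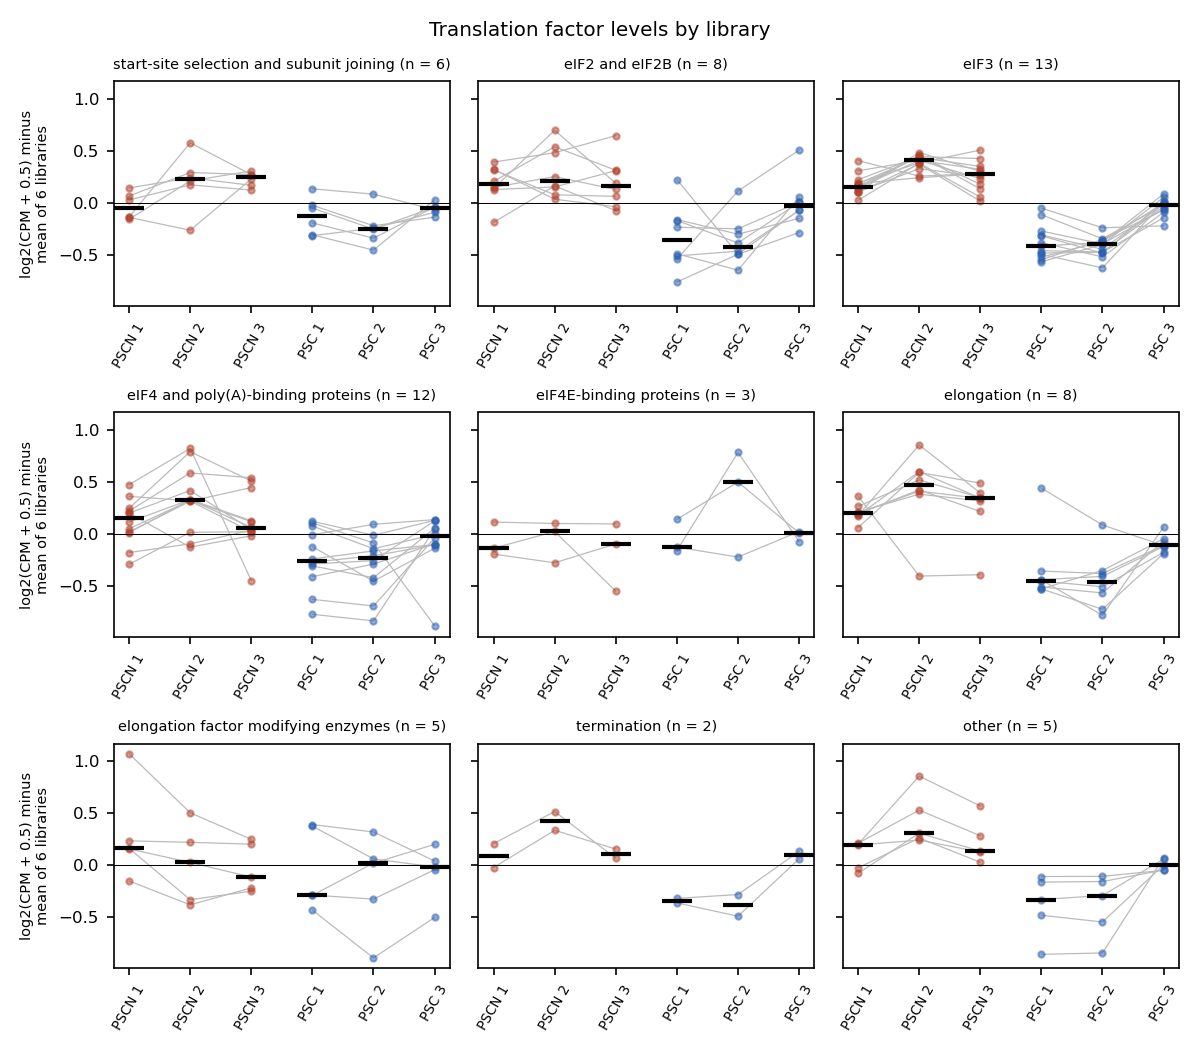
Level of each factor in each library as log2(CPM + 0.5) minus its mean over the 6 libraries (y axis), by functional group; grey lines join 1 factor across the libraries of a group and black bars are medians over the factors. In eIF3 the PSCN libraries lie above 0 for every subunit, PSC libraries 1 and 2 lie below it and PSC library 3 lies close to it; EEF1A2 is left out of the elongation panel.

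In the eIF4 group some paralogues differed in sign. EIF4A1, the main eIF4F helicase (chromosome 11, 69666936 to 69672423), stood at 368, 476 and 460.4 CPM in PSCN, against 204, 195 and 307 CPM in PSC, a log2 fold change of 0.88 (SE 0.24) with an unadjusted p of 0.0103 in edgeR. EIF4A2, its close paralogue, stood at 184, 195 and 213 CPM in PSCN, against 207, 222 and 229 CPM in PSC, with overlapping groups and a log2 fold change of -0.15 (SE 0.14). Per length, EIF4A1 averaged 100.3 in PSCN and 54.4 in PSC CPM per kb of exon and EIF4A2 37 in PSCN and 41.1 in PSC. The log2 ratio of EIF4A1 to EIF4A2 counts was 1.004, 1.29 and 1.11 in PSCN, against -0.02, -0.18 and 0.42 in PSC. It averaged 1.13 ± 0.14 in PSCN and 0.07 ± 0.32 in PSC (SD, n = 3 each), with no overlap and a two-sided exact permutation p of 0.1, the smallest possible. The processed pseudogene EIF4A-PS4 stood at 144, 199 and 188 CPM in PSCN, against 66.7, 68.4 and 128 CPM in PSC. It is not among the 65, was also above PSC in every PSCN library, and its reads and those of EIF4A1 could be hard to separate. Exons of EIF4A1 and EIF4A2 also hold small nucleolar RNA genes.

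Of the eIF4F scaffolds, EIF4G1 stood at 603, 702 and 540.3 CPM in PSCN, against 424, 392 and 545 CPM in PSC, where PSC library 3 reached above PSCN library 3. EIF4G3, its paralogue, stood at 229, 183 and 197 CPM in PSCN, against 210.5, 181 and 199 CPM in PSC, a log2 fold change of 0.05 (SE 0.16) whose sign changed under 4 of the alternatives tried. EIF4G2, a related protein without an eIF4E site, had 0.27 (SE 0.22). EIF4E, the cap-binding protein, stood at 70.4, 89.9 and 36.9 CPM in PSCN, against 54.4, 47.6 and 27.2 CPM in PSC. Library 3 was the lowest of its group in both groups for EIF4E, and the groups overlapped. EIF4E2, a cap-binding homologue that acts in repression of initiation, stood at 71.1, 87.4 and 95.8 CPM in PSCN, against 52.6, 57.2 and 65.6 CPM in PSC, a log2 fold change of 0.54 (SE 0.17) without overlap, and EIF4E3, another homologue, stood at 27.9, 34.7 and 34.8 CPM in PSCN, against 37.4, 34 and 37.6 CPM in PSC and overlapped. The helicase cofactors EIF4B and EIF4H had log2 fold changes of 0.39 (SE 0.16) and 0.34 (SE 0.16), each without overlap.

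PABPC1, the cytoplasmic poly(A)-binding protein (chromosome 15, 36595661 to 36609668), stood at 1677, 2448 and 2012 CPM in PSCN, against 826, 790.3 and 1459 CPM in PSC. Its log2 fold change was 0.997 (SE 0.34), and PSC library 3 was close to PSCN library 1. Without PSC library 3 the log2 fold change was 1.35. PABPC4, the inducible relative, stood at 80.7, 78.3 and 63.6 CPM in PSCN, against 57.5, 45.6 and 56.9 CPM in PSC, a log2 fold change of 0.48 (SE 0.17). The log2 ratio of PABPC1 to PABPC4 counts was 4.38, 4.97 and 4.98 in PSCN, against 3.84, 4.12 and 4.68 in PSC, with PSC library 3 above PSCN library 1 (two-sided exact permutation p = 0.2).

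The inhibitors of eIF4E had no common sign. EIF4EBP2, a 4E-binding protein released by mTORC1 phosphorylation, stood at 61, 68.3 and 45.7 CPM in PSCN, against 74.1, 95.3 and 67.7 CPM in PSC, a log2 fold change of -0.44 (SE 0.21) with overlapping groups. EIF4EBP3 was low and overlapped, with 29, 24 and 35 counts in PSCN, against 33, 100 and 37 counts in PSC. EIF4ENIF1, which carries eIF4E into the nucleus and represses bound mRNAs, stood at 69.9, 69.3 and 69 CPM in PSCN, against 59.1, 55.2 and 65.6 CPM in PSC, without overlap (log2 fold change 0.21 (SE 0.12)). EIF4EBP1, kept out of the counts of factors but part of the same family, stood at 55, 91.5 and 67.5 CPM in PSCN, against 27.2, 17.1 and 33.9 CPM in PSC, a log2 fold change of 1.45 (SE 0.32) with an unadjusted p of 0.00371 and an adjusted p of 0.178 in edgeR. EIF4EBP1 and EIF4EBP2 thus had opposite signs. The 3 EIF4EBP genes summed to 116, 160.2 and 114 CPM in PSCN, against 102, 114 and 102 CPM in PSC. In that sum PSCN library 3 and PSC library 2 were nearly equal.

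**Figure D4:**
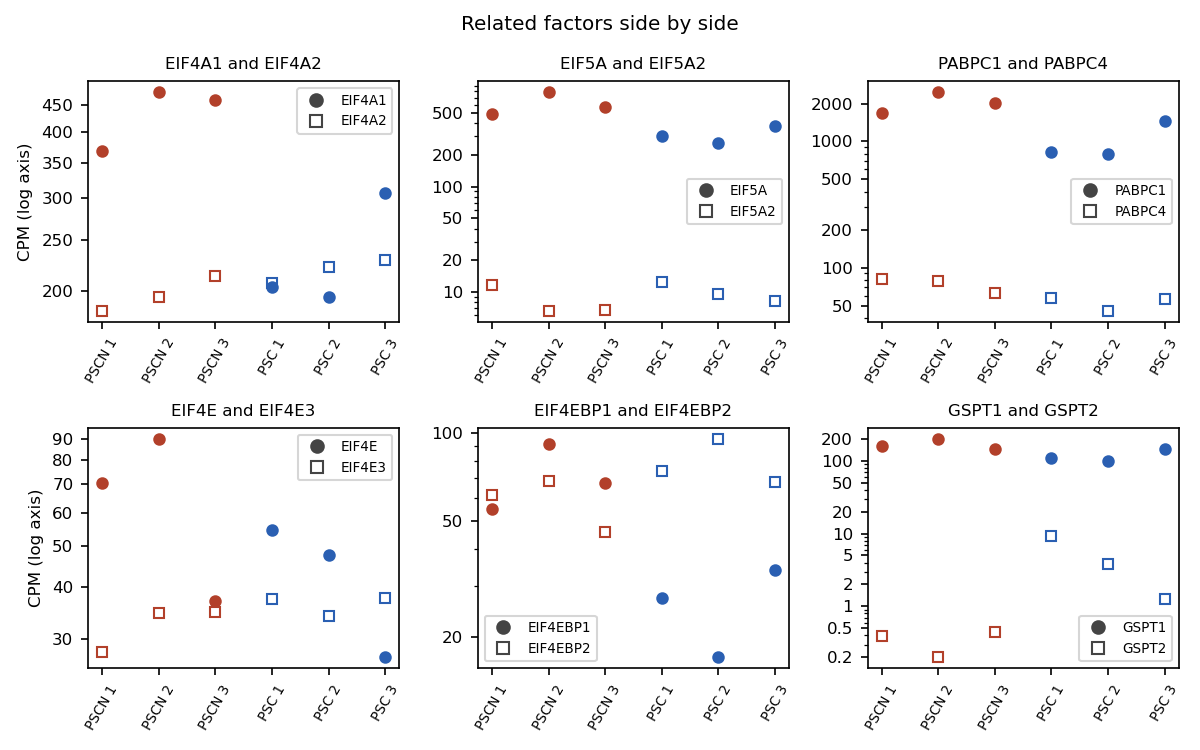
CPM on a log axis of 6 pairs of related genes in each library (PSCN in red, PSC in blue; filled circles the first gene, open squares the second). CPM is not corrected for length, so a pair is read by its change between groups: EIF4A1 separates the groups and EIF4A2 does not, EIF4EBP1 and EIF4EBP2 differ in sign, and GSPT2 is below 0.5 CPM in all PSCN libraries.

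The elongation factors held the highest levels. Per length EEF1A1 was the highest factor of all, at 1812 in PSCN and 1194 in PSC CPM per kb of exon, followed by EEF2 at 953 in PSCN and 613 in PSC. EEF1A1, the GTPase that delivers aminoacyl-tRNA (chromosome 9, 78478449 to 78489151), stood at 4228, 4766 and 4555 CPM in PSCN, against 2532, 2862 and 3537 CPM in PSC. Its groups did not overlap, with a log2 fold change of 0.60 (SE 0.27) and an adjusted p of 0.257 in edgeR. EEF2, the translocase (chromosome 10, 81176631 to 81182498), stood at 2916, 3375 and 3215 CPM in PSCN, against 1869, 1909 and 2331 CPM in PSC, likewise without overlap (log2 fold change 0.64 (SE 0.24)). Processed pseudogenes of such abundant mRNAs are common, and reads shared with them could be split.

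The exchange complex that recharges eEF1A was higher in every PSCN library. EEF1B2, a nucleotide exchange subunit, stood at 313, 419.6 and 352 CPM in PSCN, against 202, 194 and 245 CPM in PSC, and EEF1D, the other, at 78.2, 91.9 and 79.5 CPM in PSCN, against 53.2, 52.3 and 63.2 CPM in PSC. EEF1G, the structural subunit, stood at 643, 767 and 681 CPM in PSCN, against 375, 360.2 and 508 CPM in PSC. The log2 fold changes were 0.76 (SE 0.19), 0.56 (SE 0.14) and 0.75 (SE 0.21) for EEF1B2, EEF1D and EEF1G. EEF1E1, named for the same complex but part of the multisynthetase complex, stood at 16.7, 24.3 and 22.6 CPM in PSCN, against 11.6, 9.05 and 16.7 CPM in PSC, where PSC library 3 and PSCN library 1 met. Annotated exons of EEF1B2 overlap NDUFS1 on the other strand and those of EEF1D overlap NAPRT, so counts at the shared ends are uncertain.

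EIF5A, the hypusine-bearing factor of elongation and termination (chromosome 11, 69916714 to 69921958), stood at 489, 783 and 568 CPM in PSCN, against 299, 261 and 379 CPM in PSC. PSCN library 2 was far above the rest, and the log2 fold change of 0.97 (SE 0.26) was 0.71 to 1.14 with each library left out in turn. EIF5A2, its rarer paralogue, stood at 11.7, 6.66 and 6.72 CPM in PSCN, against 12.4, 9.57 and 8.28 CPM in PSC, with overlapping groups and a log2 fold change of -0.27 (SE 0.32). The log2 ratio of EIF5A to EIF5A2 counts was 5.38, 6.88 and 6.40 in PSCN, against 4.59, 4.77 and 5.52 in PSC, where PSC library 3 lay above PSCN library 1.

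EEF1A2, the eEF1A paralogue of muscle and neurons, rested on 1 library. It had 0, 10 and 3 counts in PSCN, against 3240, 94 and 0 counts in PSC. PSC library 1 held nearly all of its counts, PSC library 3 had none, and the groups overlapped. The fitted log2 fold change of -7.82 (SE 2.92) depends on how zeros are handled and ran from a value of -9.40 to -3.23 with each library left out in turn, the value nearest 0 being the one without PSC library 1. Heart muscle genes were high in the same library: the cardiac myosin heavy chain MYH6 stood at 0.919, 1.99 and 1.28 CPM in PSCN, against 1294, 9.27 and 0.204 CPM in PSC, and the cardiac troponin TNNT2 at 8.65, 25.1 and 6.53 CPM in PSCN, against 379.8, 6.16 and 3.08 CPM in PSC. Of 9 muscle markers, 6 passed the filter on low counts, and the summed level of all 9 was 14.9, 33.5 and 16.1 CPM in PSCN, against 1930.3, 50.7 and 7.14 CPM in PSC. The skeletal markers ACTA1, MYH1, MYH4 and TNNT3 were below 1 CPM in every library. Neuroendocrine markers summed to 21.8, 4.98 and 7.66 CPM in PSCN, against 49.3, 33.4 and 9.33 CPM in PSC. The part of muscle or neuroendocrine cells in the EEF1A2 level was not tested.

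**Figure D5:**
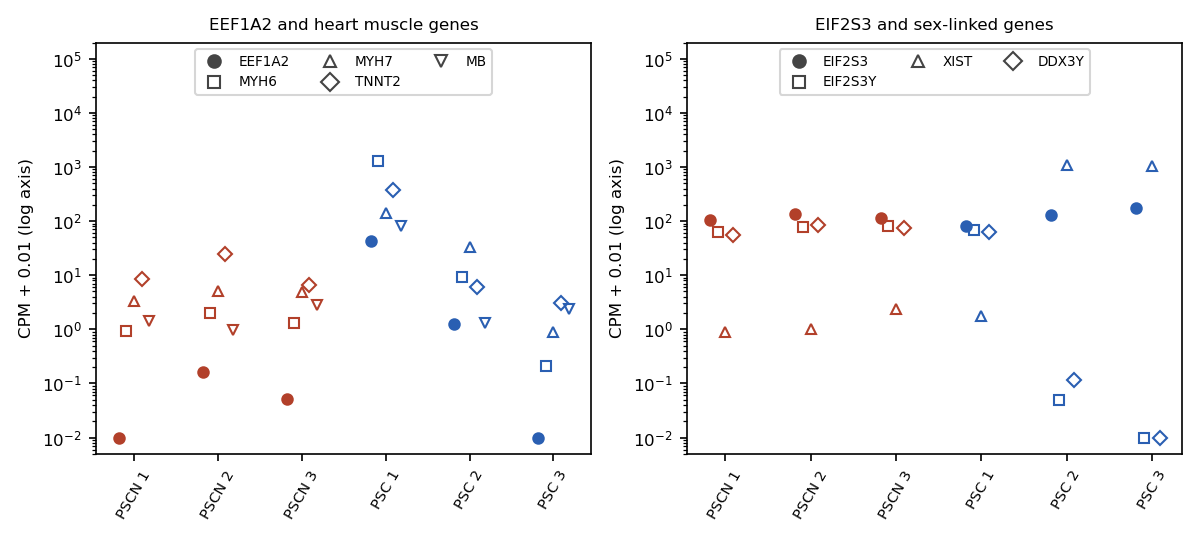
CPM + 0.01 on a log axis in each library for EEF1A2 with 4 heart muscle genes (left) and for EIF2S3 with 3 sex-linked genes (right); PSCN in red, PSC in blue, the factor filled. EEF1A2 reaches 43.7 CPM in PSC library 1 and at most 1.24 CPM elsewhere, the library where MYH6 reaches 1294 CPM, and EIF2S3 is 82.4 CPM in the XIST-low PSC library 1 and 130.1 and 171 CPM in the XIST-high PSC libraries 2 and 3.

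Enzymes that modify elongation factors showed no common direction. EEF1AKMT3, a lysine methyltransferase of eEF1A, had 213, 125 and 110 counts in PSCN, against 57, 32 and 52 counts in PSC. It was low in all libraries, at 2.19 ± 0.817 CPM in PSCN and 0.633 ± 0.185 CPM in PSC (SD, n = 3 each), but did not overlap, and its log2 fold change of 1.79 (SE 0.43) was the largest positive one among the factors. Its exons overlap METTL1 on the opposite strand, and whether the counting separated strands is not known here. EEF1AKMT2, another lysine methyltransferase of eEF1A, was the 1 factor with all PSCN libraries below PSC, at 8.6, 7.26 and 8.19 CPM in PSCN, against 12.8, 12.1 and 9.9 CPM in PSC (log2 fold change -0.53 (SE 0.21)). EEF1AKMT1 had every PSCN library above PSC, at 12.9, 12.7 and 12.6 CPM in PSCN, against 8.81, 8.56 and 10.5 CPM in PSC. EEF2K, the kinase that inhibits eEF2, overlapped between groups, at 60.5, 55.3 and 50.05 CPM in PSCN, against 44.3, 55 and 62.4 CPM in PSC. EEF2KMT, the methyltransferase of eEF2, had a log2 fold change of -0.28 (SE 0.21).

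In termination, GSPT1, the GTPase eRF3, stood at 160.4, 199 and 145 CPM in PSCN, against 108, 98.5 and 145 CPM in PSC, with PSC library 3 just under the lowest PSCN library. ETF1, the stop codon reader eRF1, stood at 196, 251 and 221 CPM in PSCN, against 159, 163 and 218 CPM in PSC and overlapped. GSPT2, a second eRF3 gene that is not among the 65, stood at 0.394, 0.201 and 0.446 CPM in PSCN, against 9.21, 3.79 and 1.27 CPM in PSC, below PSC in every PSCN library (log2 fold change -3.77 (SE 0.83), unadjusted p = 0.00382 and adjusted p = 0.179 in edgeR). The log2 ratio of GSPT1 to GSPT2 counts averaged 8.96 ± 0.83 in PSCN and 5.03 ± 1.67 in PSC (SD, n = 3 each), without overlap. Its two-sided exact permutation p was 0.1, the smallest possible. With GSPT1 above and GSPT2 below PSC in every PSCN library, the ratio had to separate the groups. That p therefore adds nothing to the values of the 2 genes.

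EIF6, which keeps the large ribosomal subunit from joining early and takes part in its assembly (chromosome 2, 155819832 to 155826925), stood at 102, 160.5 and 131 CPM in PSCN, against 48.5, 48.9 and 92.9 CPM in PSC. Its PSC library 3 was near PSCN library 1, and the log2 fold change of 1.05 (SE 0.33) was 1.44 without that library. EIF1AD, an eIF1A-like nuclear protein, stood at 40.7, 50.9 and 42.8 CPM in PSCN, against 25, 23.8 and 35.1 CPM in PSC, and its exons overlap BANF1 on the opposite strand. EIF4A3, the helicase of the exon junction complex, had a log2 fold change of 0.37 (SE 0.15).

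Genes around these factors were counted from lists. In each list below, 0 genes passed the adjusted threshold in edgeR. Of 8 measured genes of eIF2 signalling and left-out family members, 2, EIF4EBP1 and PPP1R15A, were higher in PSCN at an unadjusted p under 0.05. That is 25%, against 9.48% of all genes tested, and 0 were lower, against 12.2%. PPP1R15A, the stress-induced subunit that restores eIF2 by dephosphorylation, stood at 67.4, 72.2 and 84.5 CPM in PSCN, against 34.3, 31.5 and 50.7 CPM in PSC. The eIF2 kinases overlapped except EIF2AK1, with log2 fold changes of 0.30 (SE 0.15) for the haem-regulated EIF2AK1, 0.01 (SE 0.36) for the RNA-activated EIF2AK2, 0.09 (SE 0.14) for the endoplasmic reticulum kinase EIF2AK3 and -0.25 (SE 0.16) for the amino acid sensor EIF2AK4. Of 19 genes of mTORC1 and MNK control, 1 was higher at an unadjusted p under 0.05 (5.26%, against 9.48% of all genes tested). In the same list 0 were lower, against 12.2%, and the median log2 fold change was 0.17. That gene was the ribosomal protein RPS6, at 525, 691 and 635 CPM in PSCN, against 362, 362 and 447 CPM in PSC, while MTOR had 0.10 (SE 0.14) and the activating GTPase RHEB 0.25 (SE 0.12). DEPTOR, an mTOR inhibitor, had -0.69 (SE 0.37) with overlap.

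Of 12 measured genes for scanning helicases, reinitiation, recycling and rescue, 1 was higher, MCTS2, and 1 lower, GSPT2, at an unadjusted p under 0.05. These are 8.33% higher, against 9.48% of all genes tested, and 1 gene lower, against 12.2% of all genes tested. MCTS2, a reinitiation factor gene, had 0.73 (SE 0.22), and the recycling ATPase ABCE1 had 0.38 (SE 0.19). Of 9 genes of hypusine and diphthamide synthesis, which modify eIF5A and eEF2, 0 were higher, against 9.48% of all genes tested. The 1 lower gene, against 12.2% of all genes tested, was DPH7. It stood at 9.58, 7.48 and 9.31 CPM in PSCN, against 13.3, 12.8 and 11.5 CPM in PSC. The hypusine enzymes DHPS and DOHH had 0.31 (SE 0.15) and 0.25 (SE 0.16). Of 10 measured mitochondrial translation factors 0 were called in either direction, against 9.48% of all genes tested higher and 12.2% lower. Their median was 0.13, with TUFM, the mitochondrial counterpart of eEF1A, at 0.32 (SE 0.16). A list of mRNAs known to carry a 5′ terminal pyrimidine tract had 19 measured genes, 13 of them factors counted above. At an unadjusted p under 0.05, 13 of the 19, or 68.4%, were higher, against 9.48% of all genes tested. The 1 lower gene was EEF1A2, against 12.2% of all genes tested, and the median log2 fold change was 0.59. Of the higher genes only RACK1, NPM1 and HNRNPA1 are not factors, so the count mostly repeats the factors above. Of the 6 that are not factors, the ribosome-bound RACK1 had 0.79 (SE 0.22), the nucleolar NPM1 0.95 (SE 0.28), TPT1 0.54 (SE 0.23), HNRNPA1 0.52 (SE 0.21), VIM 0.43 (SE 0.36) and NAP1L1 0.25 (SE 0.19).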

How the data were processed

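Stranded total RNA libraries were read at 76 nt per the labels' protocols. Tools listed in the submitters' processing notes are HISAT2, StringTie, Trimmomatic and DESeq2, with no version given, and the build is GRCm38. The deposited tables hold, per symbol, estimated counts from the authors as whole numbers. A second table of the authors gives, from DESeq2, the normalized mean as a signal, log2 fold changes and their standard errors, a Wald score and p-values. The column letters C and N were read as PSC and PSCN and their numbers as replicates, which no label states outright. Some symbols follow human naming, and the strand setting of the counting is not known here.

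Genes were filtered with filterByExpr (21201 left), scaled by TMM and put through the quasi-likelihood test of edgeR 4.0.16 (R 4.3.3). Adjustment was by Benjamini-Hochberg across all of them, with a threshold of 0.05. Residual degrees of freedom were 4. SE was taken as the absolute log2 fold change over the square root of the F statistic. The edgeR, DESeq2 and both limma-voom fits were checked on simulated counts with capped dispersion and no outlying library. Their behaviour with libraries as uneven as these was therefore not checked, and the other alternatives were not simulated. With 3 libraries against 3, the smallest two-sided exact permutation p is 0.1. In all, 9 paralogue count ratios, with 0.5 added to each count, were tested so. This exact permutation p was 0.1 for EIF1/EIF1B, EIF4A1/EIF4A2 and GSPT1/GSPT2, and 0.2 for EIF5A/EIF5A2 and PABPC1/PABPC4. It was 0.3 for EEF1A1/EEF1A2, EIF4G1/EIF4G3, EIF4E/EIF4E3 and EIF4A1/EIF4A-PS4. Exon length per gene is the union of GENCODE M21 exons. No molecular identifiers are described, so reads may repeat the same molecule.

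Members and lists were chosen with earlier results of these data known. Values in every library are given for the 2 factors with the smallest p in each functional group, the highest per length and fixed paralogue pairs (as counts for EEF1AKMT3 and EEF1A2). Further genes with values were chosen after those were seen. Of the markers, TRP63, KRT6A, CYP2F2, CALCA and LYZ2 were not matched. Alternatives were RLE and upper quartile scaling, DESeq2 1.42.0, limma-voom (limma 3.58.1) with and without quality weights, 2 filters, each library left out, a replicate block and sex as a covariate.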

Additional observations from a re-analysis of the deposited data

How the results depend on the processing

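The direction of the factors' median did not depend on the settings tried: it was 0.45 as reported, 0.34 to 0.54 with each library left out in turn and 0.27 against PSC library 3 by itself (tried after seeing the data). The calls did. DESeq2 called 1126 genes higher and 1834 lower, with 21 factors higher (33.3%, against 5.31% of genes) and 1 lower, and 1 factor lower at an unadjusted p under 0.05 (against 15.4% of genes). Limma-voom with quality weights called 1788 genes higher and 1238 lower, with 30 factors higher (47.6%, against 8.43%). Limma-voom without weights called 0 genes higher, with 1 factor lower unadjusted (against 9.71% of genes), and the filter of 1 CPM in 3 libraries, which drops EEF1A2, called 3, with 1 (against 12.4%). With each library left out, 0 to 751 genes were called higher and 0 to 1195 lower, and 0 to 12 factors higher; at an unadjusted p under 0.05, 13 to 39 factors were higher (against 3.56 to 16% of genes) and 0 to 2 lower (against 7.18 to 17.3%). The 751, 1195 and 12 all came without PSC library 3. Sex as a covariate gave 0 genes called higher, with 18 factors higher (against 8.51% of genes) and 1, EEF1A2, lower (against 11.9%) unadjusted. Leaving out EEF1A2 and EIF2S3, chosen after seeing the data, left 1 factor, EEF1AKMT2, lower unadjusted in edgeR (against 12.2% of genes). Whether replicate numbers pair the libraries is not known: deviations from the group means correlated across genes at 0.21, -0.06 and 0.06 for numbers 1, 2 and 3. No reference for these correlations was computed, so they cannot exclude pairing. With a replicate block, 0 genes were called higher and unadjusted 25 factors were higher (against 8.24% of genes) and 1, EIF4EBP2, lower (against 9.51%). Signs changed for few factors. The log2 fold change of EIF4G3 was -0.021 with upper quartile scaling and -0.051 with sex as a covariate, and ran from -0.040 without PSCN library 1 to 0.097 without PSC library 1, with -0.010 without PSC library 2. The log2 fold change of EEF2K was -0.028 with upper quartile scaling, and -0.024, -0.009 and -0.087 without PSCN library 1, PSCN library 2 and PSC library 1, against 0.168 without PSC library 3. The log2 fold change of EIF2S3 was 0.165 without PSC library 3, -0.351 without PSC library 1 and 0.52 with sex as a covariate, which also gave -0.11 for EIF2B2. The cause was not tested. Upper quartile scaling moved the median of all genes to -0.08. Beyond these, 868 single-factor values kept their direction and side of the threshold, and 64 passed it only under DESeq2, limma-voom with quality weights or without PSC library 3.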
